A study of Mus musculus with 100 samples.

Results

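The Notch pathway was read through 10 of its genes in mouse stem cell cultures and whole embryos that carry, or lack, a knock-in allele of the histone methyltransferase MLL4. The 10 are the receptors Notch1, Notch2 and Notch3, the ligands Dll1, Dll4 and Jag1, and the target genes Hes1, Hes5, Hey1 and Heyl. They are 10 of the 23109 gene-level entries of the RNA tables, and each is represented by a single RefSeq transcript there. The genes were listed by name and selected on their CPM values in the knock-in comparisons, which were already known, so for the 10 genes those comparisons, and the differences between them, are described by values and fitted fold changes, with no p-value. How many of the 10 do not overlap between groups is given beside the same share of all genes, and how many the fit over all genes called is given only among the processing alternatives at the end. Nothing is read from either count. Comparisons between days or stages within a genotype, and the other genes of the pathway, were not named in the choice and are tested. The genes and lists were fixed with earlier results of these data known, so those tests are not independent of the choice.

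The RNA libraries analysed here number 37 and fall into 18 groups, 3 of them with 1 library, 11 with 2 and 4 with 3. All cultures were Mll3-/- and therefore lacked MLL3. The reference cultures, called flox, were Mll4flox/flox with the floxed allele intact as labelled, and the knock-in cultures, called KI, were Mll4KI/KI, derived as 2 clones numbered 27 and 48. In the study the KI allele removes the methyltransferase activity of MLL4 and leaves the protein. Embryonic stem cells (ESC) in 2i and LIF medium were day 0 of an embryoid body (EB) course without LIF, sampled at days 4 and 10. Neural cultures received 5 µM retinoic acid after day 4 and were taken as progenitors at day 8 and as neurons at day 16. Trophectoderm-like cultures (TE, day 6) came from cells with doxycycline-inducible CDX2 (1 µg/mL), so that lineage rested on a forced transcription factor. Extraembryonic endoderm cultures (ExEn, day 5) were treated with activin A at 10 ng/mL together with retinoic acid at 0.1 µM. Embryos, taken whole at days E8.5 and E9.5, all carried Mll3flox/KI and Sox2-Cre, a Cre driver active in the epiblast and its descendants, so extraembryonic tissue kept its floxed alleles. KI embryos were Mll4flox/KI and control embryos Mll4flox/+, which means that the controls carried the Mll3 KI allele too. The 63 other samples of the series, among them 1 RNA library from a day 8 neural culture lacking both MLL3 and MLL4, are not analysed here.

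Notch receptors are transmembrane proteins that are activated by Delta-like and Jagged ligands on a neighbouring cell. Cleavage by ADAM proteases and γ-secretase then frees the intracellular domain, which enters the nucleus, joins the DNA-binding protein RBPJ and Mastermind-like coactivators and switches on Hes and Hey genes. These encode repressors of the basic helix-loop-helix class. In the nervous system HES1 and HES5 hold progenitors back from becoming neurons by repressing proneural genes, whereas DLL4, NOTCH1, HEY1 and HEYL are best known in forming blood vessels, where arteries and mural cells use the pathway.

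Values are read counts scaled to 1000000 gene-level reads (CPM) in each library, and libraries held 18.9 to 59.9 M such reads (M, 1000000 reads). A count of 3 reads, used as the floor of detection, corresponds to 0.05 to 0.159 CPM, and it covers counting error alone. Fold changes come from edgeR fits with trimmed-mean (TMM) scaling. Against plain CPM this scaling moved the KI against flox difference by 0.20 (log2) at neural day 16 and by no more than 0.03 in the other KI comparisons, so day 16 fold changes are that much higher than ratios of CPM. The KI change from neural day 8 to day 16 moved by 0.20 too, and the other changes between stages by less than 0.10. A gene counts as called at an adjusted p below 0.05 over all genes tested. Nothing in the labels says that replicate libraries came from separate cultures, so p-values measure the spread between these libraries. A deleted exon or a point mutation cannot be seen in 1 value per transcript, so these tables do not check the genotypes. The labelled identities were checked on marker lists. Summed neuron markers reached 5250 to 8550 CPM in the 4 day 16 neural libraries, and 8 trophoblast markers summed to 3150 to 5480 CPM in TE. The same trophoblast list summed to 3110 to 4540 CPM in ExEn, so it does not separate those cultures. The list of 8 ExEn markers, among them Gata4, Gata6 and Sox17, summed to 1920 CPM in both flox ExEn libraries but to 369 and 461 CPM in the KI ones, so the KI ExEn libraries were low in the markers of their label.

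The 10 genes fell into genes read everywhere and genes near 0 in some cultures. All 3 receptors, Jag1, Hes1 and Hey1 had more than 3 reads in every one of the 37 libraries. Hes5 was at or under 3 reads in 15 libraries, Heyl in 10, Dll4 in 3 and Dll1 in 1. Per length, on the deposited RPKM scale, Hes1 had the highest median over the libraries (28.4 RPKM), followed by Notch3 (18.8), and Heyl the lowest (0.308). Hes5 ran from 0 to 55.7 RPKM and Hes1 from 4.64 to 62.9 RPKM. Across the 18 group means the closest pairs of members were Dll1 with Hes5 (Pearson r = 0.873 of log2(CPM + 1)), Dll1 with Hey1 (0.828) and Dll4 with Hey1 (0.816). These correlations describe 18 groups that share cell lines and library depth and carry no test.

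**Figure D1:**
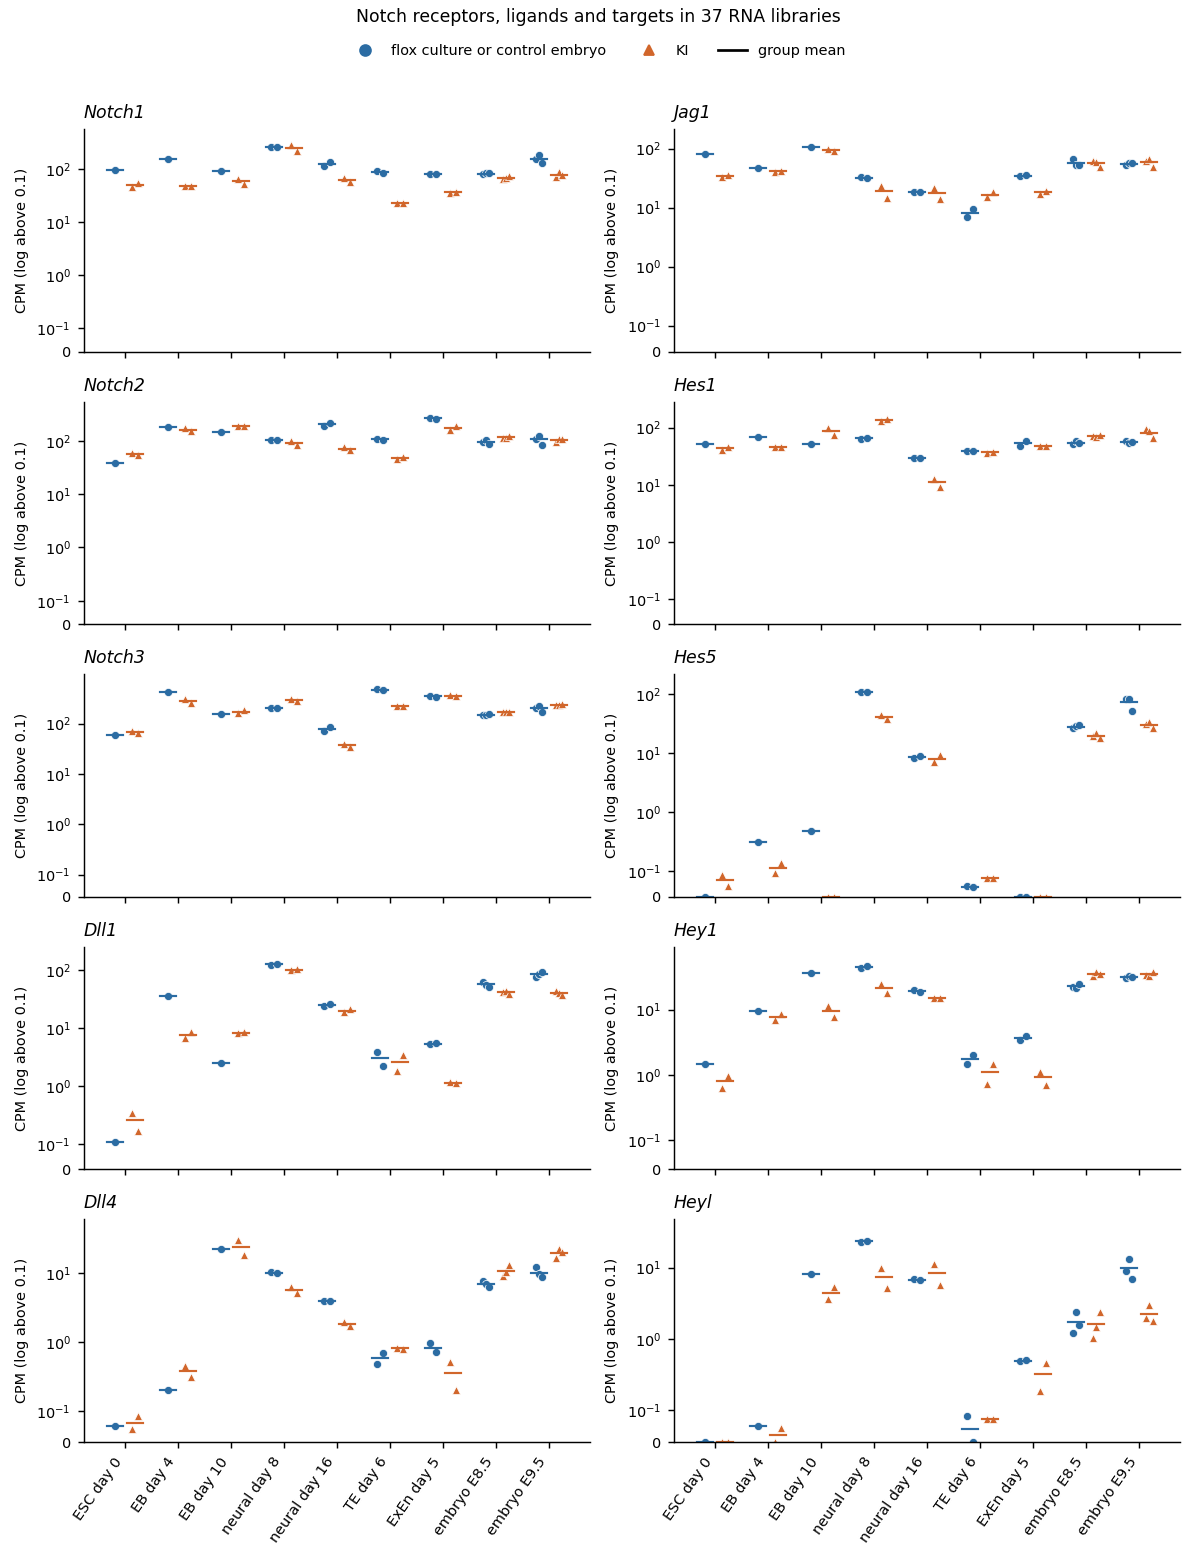
CPM of each gene in each of the 37 libraries by culture or stage (log axis above 0.1 CPM, linear below), with circles for flox cultures or control embryos, triangles for KI and bars for group means. Hes5 and Heyl were near 0 in ESC and TE, whereas the 3 receptors stayed between 22.8 and 478.5 CPM in every library.

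Notch1, the founding receptor of the family, was highest at neural day 8, with 264 and 261 CPM in flox and 282 and 220 CPM in KI, and these ranges overlap. It was lowest in KI TE, at 23.4 and 22.8 CPM, where flox TE had 93.8 and 85.8 CPM. The fitted KI difference in TE was -1.93 ± 0.08 (log2, SE), a 3.80-fold lower level. In ExEn, KI libraries had 36.1 and 37.2 CPM against 79.5 and 81.8 CPM (log2 -1.17 ± 0.08). At neural day 16 they had 68.5 and 57.9 CPM against 114 and 133 CPM (log2 -0.77 ± 0.13). KI was below flox without overlap in these 3 cultures.

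In the EB course Notch1 was lower in both KI clones than in the single flox library on each day. On day 0 clones 27 and 48 had 45.0 and 53.9 CPM against 96.5 CPM. On day 4 they had 47.6 and 48.6 CPM against 154.7 CPM, the widest gap of the course, and on day 10 they had 66.1 and 53.0 CPM against 93.6 CPM. Embryos showed the same order at both stages. E8.5 KI embryos had 63.5, 68.2 and 73.6 CPM and controls 79.2, 84.0 and 82.6 CPM, a fitted difference of -0.26 ± 0.10. At E9.5 the gap was wider, with 72.2, 88.3 and 76.0 CPM in KI and 151, 181 and 130.1 CPM in controls, a fitted difference of -0.97 ± 0.10.

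Notch2, a receptor with a role in vessel and bile duct development, was highest in flox ExEn (272 and 261 CPM) and lowest in flox ESC (38.5 CPM). At neural day 16, KI libraries had 77.1 and 66.3 CPM where flox had 193 and 221 CPM, a 2.51-fold lower level (log2 -1.33 ± 0.11). In TE it was 44.9 and 49.9 CPM in KI against 110.5 and 103.6 CPM (log2 -1.14 ± 0.08), and in ExEn 162 and 191 CPM against 272 and 261 CPM (log2 -0.62 ± 0.08). In E8.5 embryos the order was the other way, with 111 to 121 CPM in KI and 88.1 to 102 CPM in controls (log2 0.29 ± 0.11). The E9.5 groups overlapped (96.0 to 109 CPM and 84.5 to 125 CPM).

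Notch3, the receptor of vascular smooth muscle and pericytes, which is also made by neural progenitors, was highest in flox TE at 478.5 and 459 CPM. KI TE had 223 and 227 CPM (log2 -1.03 ± 0.05), whereas KI and flox ExEn overlapped at 362 and 354 against 357.5 and 344 CPM. The neural days went in opposite directions. On day 8 KI libraries, at 309.5 and 287 CPM, were above flox, at 202 and 201.5 CPM (log2 0.59 ± 0.11). By day 16 KI had 38.8 and 34.8 CPM and lay below flox, at 70.2 and 86.8 CPM (log2 -0.89 ± 0.11). Embryos differed little, by 0.19 ± 0.08 at E8.5 and 0.23 ± 0.08 at E9.5, with KI libraries above all controls at both stages, the closest at E9.5 being 229.0 CPM in KI and 228.5 CPM in control.

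Dll1, the Delta-like ligand of somites and neurogenic epithelium, peaked at neural day 8. Flox libraries had 126 and 129 CPM there and KI libraries 101 and 107 CPM (log2 -0.26 ± 0.10). The KI level was lower by more in ExEn, at 1.17 and 1.11 CPM against 5.28 and 5.47 CPM, although this rests on 22 to 109 reads per library (log2 -2.26 ± 0.39). In embryos KI was below control at both stages. The E8.5 values were 43.1, 44.6 and 39.9 CPM against 62.8, 57.2 and 51.7 CPM (log2 -0.42 ± 0.09), and the E9.5 values 43.9, 40.5 and 37.3 CPM against 75.7, 88.5 and 92.7 CPM (log2 -1.08 ± 0.09). In EBs the sign differed between days: on day 4 both clones, at 6.81 and 8.64 CPM, were below flox at 36.0 CPM, and on day 10 both, at 8.18 and 8.62 CPM, were above flox at 2.52 CPM.

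Dll4, the ligand of arterial endothelium and sprouting tip cells, was near 0 in ESC (1 or 2 reads in each of the 3 libraries) and highest in day 10 EBs, at 22.7 CPM in flox and 30.4 and 18.4 CPM in KI. It overlaps Gm14207, an entry that reached 2.87 CPM and followed Dll4 over the 37 libraries (Pearson r = 0.941). Whether strand was used in counting is not given in the sources used here, so the 2 entries may share reads. Dll4 was lower in KI neural cultures on both days, at 6.25 and 5.18 CPM against 10.3 and 10.2 CPM on day 8 (log2 -0.81 ± 0.14), and at 2.00 and 1.72 CPM against 3.98 and 4.00 CPM on day 16 (log2 -0.90 ± 0.16). KI embryos stood on the other side. They had 9.28, 10.3 and 13.1 CPM at E8.5 against 7.86, 7.03 and 6.29 CPM (log2 0.63 ± 0.17), and 16.7, 22.4 and 20.7 CPM at E9.5 against 12.3, 9.65 and 8.90 CPM (log2 0.95 ± 0.17), with no overlap at either stage.

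Jag1, the Jagged ligand of endothelium, inner ear and mural cells, was highest in day 10 EBs, at 106.7 CPM in flox and 96.5 and 90.4 CPM in KI. In TE both KI libraries were above flox, at 14.9 and 18.2 CPM against 6.95 and 9.41 CPM (log2 1.04 ± 0.16). ExEn went the other way, with 17.0 and 19.4 CPM in KI and 34.0 and 35.1 CPM in flox (log2 -0.96 ± 0.15). On neural day 8 the KI clones themselves were spread, at 23.2 CPM in clone 27 and 14.4 CPM in clone 48, both below the 33.1 and 31.3 CPM of flox (log2 -0.75 ± 0.22), and on day 16 the groups overlapped (log2 0.16 ± 0.22). KI ESC had 33.5 and 36.2 CPM where flox had 80.2 CPM. In embryos the groups overlapped at both stages, all 12 libraries lying between 49.1 and 66.0 CPM.

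Hes1, the target that keeps progenitors undifferentiated and oscillates in somite formation, showed the sharpest reversal between neural days. On day 8 KI libraries had 131 and 142 CPM where flox had 63.9 and 65.7 CPM, a 2.16-fold higher level (log2 1.11 ± 0.11). On day 16 KI libraries had 12.7 and 9.32 CPM where flox had 29.6 and 29.8 CPM, a 2.35-fold lower level (log2 -1.23 ± 0.12). In embryos KI was above control without overlap, at 69.7 to 73.5 CPM against 51.4 to 57.8 CPM at E8.5 (log2 0.40 ± 0.10) and at 66.1 to 93.2 CPM against 53.3 to 57.5 CPM at E9.5 (log2 0.55 ± 0.10). In TE and ExEn the fitted differences were -0.06 ± 0.10 and -0.16 ± 0.10. In EBs the sign differed between days. KI clones were below the flox library on day 0, at 41.1 and 45.5 against 52.4 CPM, and on day 4, at 45.5 and 46.2 against 69.6 CPM, and above it on day 10, at 99.6 and 74.9 against 52.6 CPM.

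Hes5 is the target most restricted to the neural lineage, and its start-site sequence is shown because it was the member whose window held the full motif of RBPJ. RBPJ binds DNA at the core TGGGAA, most often as GTGGGAA. The windows available, 250 bases before to 50 after a RefSeq start (GRCm38.p6), covered 7 of the 10 genes and 36 of the other Notch genes, and Hes1, Hey1 and Heyl had no entry. On either strand, GTGGGAA was found in 6.38% of 32851 windows and 2 or more copies in 0.256%, while the shorter TGGGAA, which every GTGGGAA contains, was found in 25.6%. Of the 7 genes of the set Hes5 had GTGGGAA, in 2 copies, and the other 6 had none, while 7 of the 36 other Notch genes had it. These 7 were Psen2, Rbpjl, Aph1a, Spen, Lfng, Hey2 and Hes7, and the windows of Psen2, Rbpjl, Aph1a and Spen are not printed. The Hes5 windows are printed 5′ to 3′ on the gene's strand beside those of Lfng, a glycosyltransferase that modifies the receptors, and of the targets Hey2 (1 of its 2 copies) and Hes7, with the motif or its reverse complement in capitals.
Hes5, motif at -83 to -77 from the start, chr4:154960829-154960858, plus strand: ggccgccgagtGTGGGAAcggccgcggcgc
Hes5, motif at -226 to -220 from the start, chr4:154960686-154960715, plus strand: gggcgagcgcgTTCCCACagcccggacatt
Lfng, motif at -109 to -103 from the start, chr5:140607221-140607250, plus strand: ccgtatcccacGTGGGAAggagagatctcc
Hey2, motif at -207 to -201 from the start, chr10:30842972-30843001, minus strand: gcgcggtggcaTTCCCACgcctctgccaac
Hes7, motif at -180 to -174 from the start, chr11:69120262-69120291, plus strand: cctcccctcacTTCCCACatttggggctag
A match of these letters is a description of the sequence and does not show binding.

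Hes5 had 107.6 and 109 CPM in flox neural progenitors and 44.0 and 37.3 CPM in KI ones, a 2.61-fold lower level (log2 -1.38 ± 0.13). By day 16 the groups overlapped, at 8.16 and 9.02 CPM in flox and 7.03 and 9.10 CPM in KI. In embryos KI was below control at both stages, with 19.2, 21.7 and 18.4 CPM against 26.4, 28.4 and 30.0 CPM at E8.5 (log2 -0.51 ± 0.16, or ± 0.10 with the title number as a replicate block), and 31.0, 33.3 and 27.1 CPM against 83.5, 83.9 and 51.4 CPM at E9.5 (log2 -1.26 ± 0.15). It was at or under 12 reads in every ESC, EB, TE and ExEn library, and no KI difference can be read there.

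Hey1, a repressor used in heart and arterial development, was highest in flox neural progenitors, at 43.1 and 45.6 CPM against 25.0 and 17.9 CPM in KI (log2 -1.02 ± 0.13). Day 10 EBs gave 36.1 CPM in flox and 11.3 and 7.83 CPM in the KI clones. In ExEn KI had 1.13 and 0.707 CPM against 3.39 and 3.99 CPM (log2 -2.03 ± 0.45), on 14 to 78 reads. E8.5 KI embryos were above controls, at 32.8, 37.1 and 35.4 CPM against 22.3, 21.6 and 24.6 CPM (log2 0.62 ± 0.10). At E9.5 the KI libraries were still above all controls, by 0.15 ± 0.09.

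Heyl, the Hey gene of smooth muscle, pericytes and somites, had 22.8 and 23.7 CPM in flox neural progenitors and 9.74 and 5.14 CPM in KI clones 27 and 48 (log2 -1.62 ± 0.35). On day 16 the same clones had 11.1 and 5.76 CPM and lay on either side of flox, at 6.90 and 6.66 CPM. E8.5 embryos overlapped, with 1.02 to 2.40 CPM in KI and 1.19 to 2.42 CPM in controls. At E9.5 KI embryos had 1.99, 3.00 and 1.81 CPM where controls had 9.01, 13.3 and 6.94 CPM, a 4.29-fold lower level and the widest embryonic difference of the 10 genes (log2 -2.10 ± 0.33).

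**Figure D2:**
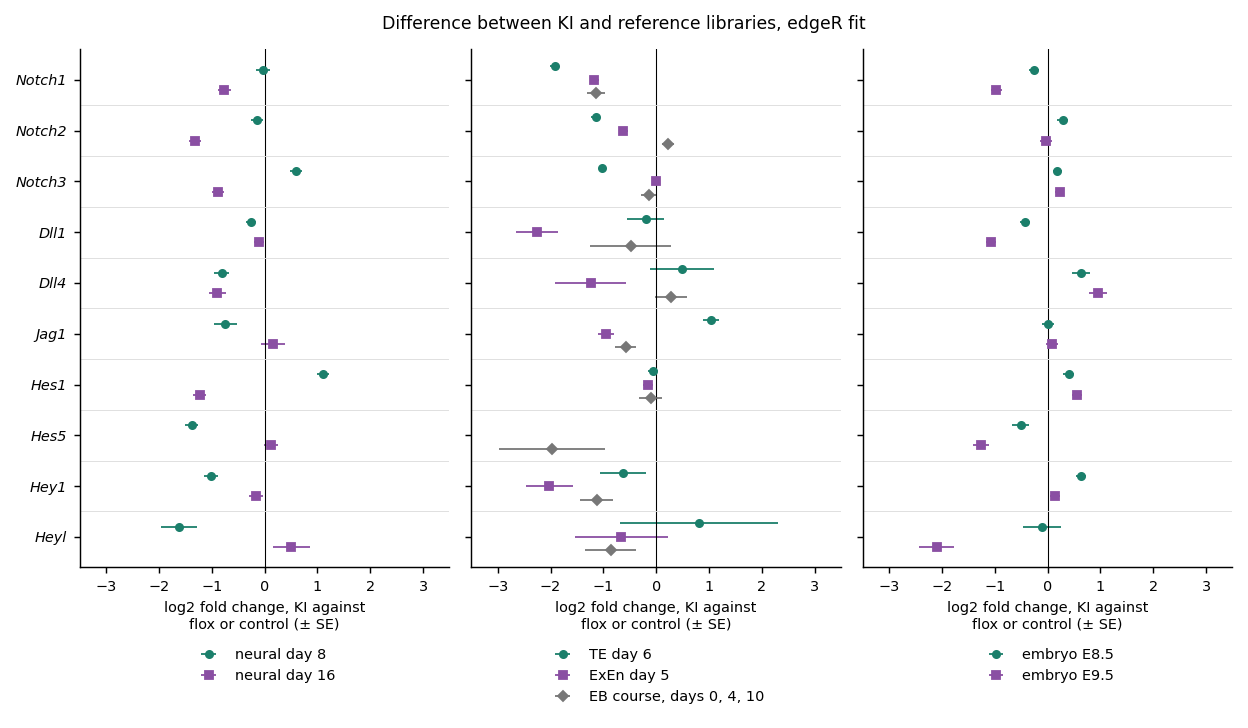
Fitted log2 fold change of KI against flox or control for the 10 genes (points, with bars of 1 SE), in neural cultures (left), TE, ExEn and the EB course (middle) and embryos (right). Notch3 and Hes1 lie right of 0 at neural day 8 and left of 0 at day 16, a gene with no point was not tested in that fit, and the EB point of Hes5 and the TE point of Heyl rest on at most 12 and 2 reads per library.

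At neural day 8, 9 of the 10 genes did not overlap between KI and flox, Notch1 being the exception, where 64.8% of all 16439 genes tested did not overlap. Notch3 and Hes1 were above flox (27.2% of all genes were) and the other 7 below it (37.7%). Of all genes 19.5% were called (6.3% higher, 13.2% lower, 8.09% with at least a 2-fold change). The median log2 fold change of the 10 was -0.50, and that of all genes 0.00. Among 42 other Notch genes tested, edgeR called 1 higher and 9 lower with a median of -0.01. Hes3, a HES gene of early neural progenitors, was higher in KI at 8.78 ± 2.40 CPM against 2.90 ± 0.26 CPM (SD, n = 2 each, log2 1.63 ± 0.21, edgeR adjusted p = 0.00012). The 3 called lower with at least a 2-fold change were Dlk1, Dtx1 and Neurl1b. Dlk1, a Delta-like protein without the receptor-binding domain, had 46.8 ± 13.4 CPM in KI and 440.3 ± 0.90 CPM in flox (log2 -3.20 ± 0.30, edgeR adjusted p = 0.00034). The ubiquitin ligase genes Dtx1 and Neurl1b were 2.09-fold and 2.05-fold lower. Of 5 proneural genes tested, Neurog2 was called higher, at log2 0.58 ± 0.09, and Neurog1 and Neurod1 lower, at -0.61 ± 0.11 and -0.78 ± 0.14.

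These cultures hold more than neural cells, and in bulk RNA fewer cells of a type and less RNA per cell cannot be told apart. None of the 10 endothelial markers was at or under 3 reads in all day 8 flox libraries or in all day 8 KI libraries. Their sum was 144 and 146 CPM in flox and 28.0 and 34.7 CPM in KI, so the KI libraries with less Dll4, Jag1, Hey1 and Heyl also had less endothelial RNA. The sum of 8 mural markers was 101 CPM in both flox libraries and 44.3 and 51.1 CPM in KI. Neural progenitor markers differed little, at 1660 and 1680 CPM in flox and 1820 and 1840 CPM in KI, and neuron markers were at 2340 CPM in both flox libraries and at 1450 and 1700 CPM in KI. Radial glia markers summed to 145 and 146 CPM in flox and 69.9 and 82.2 CPM in KI, and presomitic and somite markers to 118 and 122 CPM against 77.0 and 77.8 CPM, both in the direction of Hes5, Heyl and Dll1. The part of these cells in the Notch values was not tested.

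**Figure D3:**
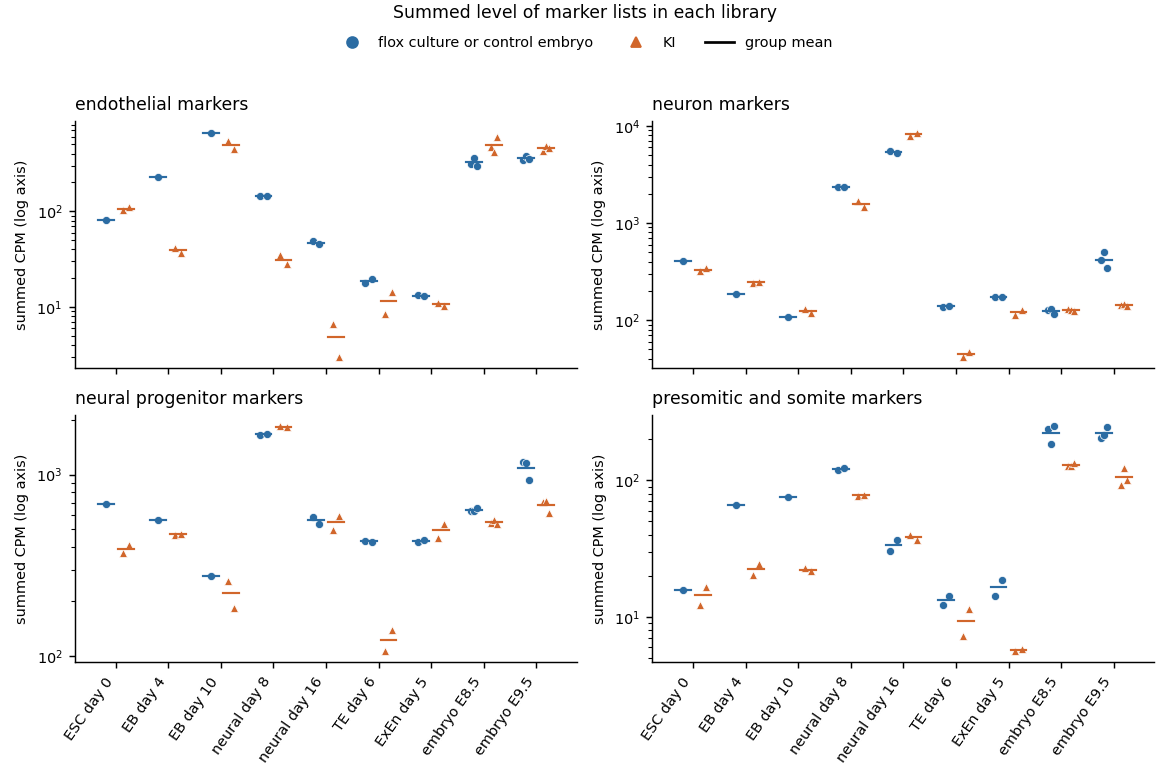
Summed CPM of 4 marker lists in each library (log axes), with circles for flox or control, triangles for KI and bars for group means. The endothelial sum was lower in KI neural cultures and higher in KI embryos. At neural day 16 single genes of the endothelial list were called in both directions. Summed neuron markers were 139 to 146 CPM in KI E9.5 embryos against 341 to 499 CPM in controls.

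At neural day 16, 7 of the 10 did not overlap between genotypes, where 68.6% of all genes did not. All 7 were lower in KI (44.3% of all genes were apart and lower). Of all genes 46.9% were called (19.7% lower). The median of the 10 was -0.46 beside 0.09 for all genes. The other Notch genes had 4 higher and 12 lower calls of 42, with a median of -0.10. Dlk1 was again lowest in KI, at 19.8 ± 7.01 CPM against 414.6 ± 43.4 CPM (log2 -4.18 ± 0.31, edgeR adjusted p = 5.9e-05). Maml1, a Mastermind coactivator, was 2.23-fold lower, at 22.9 ± 1.81 CPM against 58.5 ± 1.85 CPM. Neurog2 and Neurod4, which act before terminal differentiation, were 6.20-fold and 4.11-fold lower at levels under 1.1 CPM in both genotypes. Hes3 was also called lower, but on at most 4 reads per library in KI. Summed endothelial markers were 45.2 and 48.6 CPM in flox and 3.01 and 6.61 CPM in KI, and mural markers 147 and 161 against 52.5 and 66.1 CPM. Gene by gene, 2 of the 10 endothelial markers were called higher and 2 lower, and 5 of the 8 mural markers were called lower. Neuron markers summed to 5250 and 5520 CPM in flox and to 7930 and 8550 CPM in KI, and extraembryonic endoderm markers to 188 CPM in both flox libraries and to 54.8 and 84.4 CPM in KI. The part of these cells in the lower receptor and Dll4 values was not tested.

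The KI effect differed between the neural days for 13 of 42 other Notch genes by the interaction term of the same fit (7 with a higher and 6 with a lower value on day 16, 33.2% of all genes called). Notch4, an endothelial receptor, moved from -0.94 to 0.37 (difference 1.31 ± 0.19, edgeR adjusted p = 0.00025), and Hes3 the other way (difference -3.46 ± 0.64, edgeR adjusted p = 0.0015). Aph1b and Dtx1 had differences of 1.21 ± 0.17 and 1.15 ± 0.18, and Maml1, a Mastermind-like coactivator gene, one of -1.21 ± 0.13. The proneural genes Neurog2 and Neurod4 had differences of -3.21 ± 0.30 and -1.73 ± 0.34. For the members the estimated differences are a description, and ranged from -2.34 ± 0.17 for Hes1 to 2.13 ± 0.49 for Heyl.

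In TE, 6 of the 9 genes tested did not overlap between KI and flox, where 76.2% of all genes did not. The 3 receptors and Hes1 were below flox (39.5% of all genes were) and Dll4 and Jag1 above it (36.7%), and 50.9% of all 15532 genes tested were called. Hes5 was not tested, having at most 2 reads per library. The other Notch genes had 7 higher and 7 lower calls of 41. The 4 with the largest changes were all lower in KI. Maml2 had 1.34 ± 0.05 CPM against 5.99 ± 0.97 CPM (log2 -2.12 ± 0.23, edgeR adjusted p = 3.1e-06), Notch4 2.43 ± 1.49 against 10.5 ± 0.64 CPM (log2 -2.08 ± 0.33), Lfng 2.05 ± 0.95 against 8.13 ± 0.96 CPM (log2 -1.95 ± 0.31), and Dtx4 3.34 ± 0.05 against 11.02 ± 0.87 CPM (log2 -1.69 ± 0.19). Rbpj itself was higher, at 215 ± 3.09 against 150.4 ± 3.35 CPM (log2 0.55 ± 0.06, edgeR adjusted p = 6.7e-06). Rbpj, the DNA-binding partner of the receptors, is below the 2-fold rule and was named after its values were seen. Its p-values in TE, in ExEn and for their difference are therefore a description. In ExEn Rbpj was lower in KI, at 132.4 ± 11.6 against 158.7 ± 6.74 CPM (log2 -0.29 ± 0.07, edgeR adjusted p = 0.0029), and the KI effect on it was higher in TE than in ExEn by 0.84 ± 0.09 on the log2 scale (edgeR adjusted p = 8.4e-06). Trophoblast markers summed to 5300 and 5480 CPM in KI and 3150 and 3220 CPM in flox, while pluripotency markers summed to 469 and 610 CPM in KI and 1310 CPM in both flox libraries. Neural progenitor markers summed to 107 and 140 CPM against 424 and 433 CPM, neuron markers to 41.8 and 47.4 CPM against 137 and 140 CPM, and mural markers to 162 and 205 CPM against 372 and 379 CPM, the last in the direction of Notch3. The part of these shifts in the receptor values was not tested.

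In ExEn the 9 fitted differences ranged from -2.26 ± 0.39 for Dll1 to -0.001 ± 0.05 for Notch3, whose KI and flox libraries overlapped. Those of Dll4 and Heyl rest on 4 to 20 and 4 to 10 reads per library. Of the 9, 7 did not overlap between KI and flox, where 69.1% of all genes did not. All 7 were lower in KI (31.7% of all genes were apart and lower), and 35.5% of all genes were called (17.4% lower). Hes5 had no read in any ExEn library, which at this depth allows up to 3 reads in each. The other Notch genes had 5 higher and 8 lower calls of 41 with a median of 0.01, and 7 calls in all without flox replicate 1. Dtx4 was 4.13-fold lower in KI, at 3.44 ± 0.35 against 13.9 ± 0.04 CPM (edgeR adjusted p = 1.9e-06), Dlk1 2.77-fold lower at 246 ± 100.5 against 669 ± 24.8 CPM (edgeR adjusted p = 0.024), and Nrarp, a feedback inhibitor induced by Notch, 2.06-fold lower at 2.91 ± 0.26 against 5.89 ± 0.05 CPM (edgeR adjusted p = 0.0059). Nrarp was also called lower in TE, at 7.01 ± 2.61 against 14.6 ± 0.80 CPM (edgeR adjusted p = 0.0014). The KI effect differed between TE and ExEn for 16 of 41 other Notch genes (7 higher and 9 lower in TE, 35.3% of all genes), for 9 without TE flox replicate 2 and for 8 without ExEn flox replicate 1. Those past 2-fold were Lfng, Maml2 and Notch4, each lower in TE, by 2.19 ± 0.41, 1.72 ± 0.30 and 1.49 ± 0.49 on the log2 scale. The KI ExEn libraries carried less of their own lineage markers, as given above. Presomitic and somite markers summed to 5.63 and 5.81 CPM in KI and 14.2 and 18.6 CPM in flox, and radial glia markers to 5.76 and 5.96 CPM against 23.0 and 26.2 CPM. Of the presomitic and somite genes Foxc2 accounted for nearly all of that gap, its level being 13.1 ± 1.90 CPM in the flox libraries and 2.53 ± 0.01 CPM in KI. Neuron markers were lower in KI as well, at 114 to 128 against 173 CPM. Mural markers were higher in KI, at 4480 to 5430 against 3930 to 3970 CPM, as were trophoblast markers, at 3830 to 4540 against 3110 to 3120 CPM. The part of these in the Notch values was not tested.

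Over the EB course, fitted with day as a factor, Notch1 had a KI difference of -1.14 ± 0.17 (log2), and -0.86 without the flox day 4 library. Of all 16567 genes 0.73% were called. None of 42 other Notch genes was called by edgeR, with 9 at an unadjusted p below 0.05, DESeq2 called 3, and edgeR called 1 without the flox day 0 or the flox day 4 library. Of 3 proneural genes Neurod1 was called, at 3.00 ± 1.06 CPM in the 6 KI libraries and 0.684 ± 0.55 CPM in the 3 flox libraries (log2 2.27 ± 0.37, edgeR adjusted p = 0.044). On single days there is 1 flox library and no test, and a gene was counted where both clones differed from it by at least 2-fold in the same direction on the log2(CPM + 0.5) scale. By that rule Jag1 was lower on day 0 (7.68% of genes with at least 1 CPM), Notch1 and Dll1 were lower on day 4 (5.88%), and Hey1 was lower and Dll1 higher on day 10 (7.42%). On day 0 ExEn markers summed to 33.9 to 46.9 CPM in KI against 121 CPM in flox, and endothelial markers to 102 to 111 against 81.5 CPM. On day 4 the endothelial sum was 230 CPM in flox and 36.5 and 41.8 CPM in KI, and the sum of 9 presomitic and somite markers 66.2 CPM in flox and 20.2 and 24.4 CPM in KI. Trophoblast markers were also lower in KI, at 824 to 890 against 2250 CPM. So were mural markers, at 421 to 526 against 1140 CPM, and ExEn markers, at 133 to 137 against 385 CPM. Pluripotency markers were higher in KI, at 1480 to 1530 against 904 CPM, as were neuron markers, at 243 to 250 against 187 CPM. On day 10 the heart marker sum was 2360 CPM in flox and 227 and 335 CPM in KI, and the endothelial sum 665 CPM in flox and 444 and 545 CPM in KI. Presomitic and somite markers on day 10 summed to 75.0 CPM in flox and 21.5 and 22.7 CPM in KI, against the direction of Dll1. Mural markers were at 1410 CPM in flox and 2430 and 2750 CPM in KI, and extraembryonic endoderm markers at 1280 CPM in flox and 2100 and 2200 CPM in KI. The part of these cells in the Jag1, Notch1, Dll1 and Hey1 values was not tested.

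At E8.5, 8 of the 10 did not overlap between KI and control embryos, where 24.7% of all genes did not. Of all 15436 genes tested 5.46% were called (3.63% higher, 1.83% lower, 1.39% with at least a 2-fold change). Of 42 other Notch genes 3 were called higher and 1 lower, and with the title number as a replicate block 4 higher and 1 lower. Without KI replicate 3 there was 1 such call, and without any other single E8.5 embryo 2 or 3. Notch4, Furin and Numbl were higher, at log2 0.54 ± 0.15, 0.50 ± 0.08 and 0.36 ± 0.10, and Lfng was lower, at -0.46 ± 0.11, none of them past 2-fold. Of 6 proneural genes Neurog1 was called, 4.69-fold lower in KI at 0.387 ± 0.13 against 1.88 ± 1.54 CPM (n = 3 each, edgeR adjusted p = 0.040). The endothelial sum was 414 to 595 CPM in KI and 301 to 364 CPM in controls, without overlap, in the direction of Dll4, Hey1 and Notch4. The presomitic and somite sum was 127 to 134 CPM against 185 to 248 CPM, in the direction of Dll1 and Lfng. Other lists stood apart as well. Blood markers were at 113 to 216 CPM in KI and 713 to 1460 CPM in controls, and neural progenitor markers at 533 to 565 against 628 to 654 CPM. Trophoblast markers, at 943 to 1140 against 619 to 769 CPM, mural markers, at 470 to 555 against 303 to 423 CPM, and pluripotency markers, at 75.8 to 97.2 against 55.7 to 58.4 CPM, were above controls. The part of these cells in the Notch values was not tested.

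At E9.5, 8 of the 10 did not overlap, where 44% of all genes did not. Notch3, Dll4, Hes1 and Hey1 were above controls and Notch1, Dll1, Hes5 and Heyl below. Of all genes 29.5% were called (5.96% with at least a 2-fold change). The other Notch genes had 7 higher and 7 lower calls of 42 with a median of -0.02. The 4 past 2-fold were all lower in KI. Dll3, the ligand of the somite clock, had 11.5 ± 2.66 CPM against 41.8 ± 4.34 CPM (log2 -1.86 ± 0.17, edgeR adjusted p = 1.5e-06). Nrarp had 36.7 ± 1.64 against 96.8 ± 9.13 CPM (log2 -1.40 ± 0.09, edgeR adjusted p = 2.7e-09), and the glycosyltransferase genes Lfng and Mfng were 2.34-fold and 2.17-fold lower (edgeR adjusted p = 1.3e-07 and 0.00016). Hey2, the target of heart and artery, was higher, at 13.8 ± 1.08 against 8.76 ± 1.80 CPM (log2 0.66 ± 0.16). Of 6 proneural genes 4 were called, all lower. Neurod4, Neurod1 and Neurog1 had log2 differences of -2.28 ± 0.71, -1.94 ± 0.44 and -1.73 ± 0.39. The summed lists moved beside them. Neuron markers were at 139 to 146 CPM in KI and 341 to 499 CPM in controls, neural progenitor markers at 613 to 719 against 936 to 1170 CPM, and presomitic and somite markers at 92.2 to 123 against 204 to 247 CPM. Endothelial markers, at 428 to 486 against 343 to 382 CPM, heart markers, at 953 to 1810 against 392 to 515 CPM, and mural markers, at 440 to 583 against 236 to 257 CPM, were higher in KI, as were trophoblast markers, at 610 to 641 against 183 to 394 CPM, and ExEn markers, at 558 to 582 against 328 to 365 CPM. Blood markers were at 615 to 3140 CPM in KI and 3350 to 9230 CPM in controls. Heyl was lower while the mural sum was higher. Their part in the Notch values was not tested.

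The KI effect changed between the embryonic stages for 6 of 42 other Notch genes (1 higher and 5 lower at E9.5, 6.63% of all genes). Those past 2-fold were Dll3, with a difference of -1.95 ± 0.24 (edgeR adjusted p = 0.00018), and Nrarp, with -1.37 ± 0.13 (edgeR adjusted p = 7.4e-06). For the members the estimated differences, as a description, were -0.71 ± 0.14 for Notch1, -0.65 ± 0.13 for Dll1, -0.75 ± 0.22 for Hes5, -0.48 ± 0.13 for Hey1 and -1.99 ± 0.49 for Heyl, and between -0.32 and 0.32 for the other 5.

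The change between stages within a genotype was not named in the choice of genes and was tested over all genes. This change shares its libraries with the KI comparisons above. The levels in these libraries were known at the choice, so the members' p-values and counts here are not independent of it. From neural day 8 to day 16 in flox cultures all 10 genes were called, 9 falling and Notch2 rising, where 77.1% of all genes were called (38.7% falling, 38.4% rising). The median of the 10 was -1.25 and that of all genes -0.02. Hes5 fell most, from 108 ± 1.18 to 8.59 ± 0.61 CPM (SD, n = 2 each, log2 -3.63 ± 0.14, 12.4-fold, edgeR adjusted p = 2.2e-10). Dll1 fell 4.95-fold, from 127 ± 1.69 to 25.2 ± 1.88 CPM (edgeR adjusted p = 7.2e-10), and Heyl 3.35-fold (edgeR adjusted p = 0.0025). Notch1, Notch3, Dll4, Hes1 and Hey1 fell between 2.08-fold and 2.52-fold. Jag1 fell 1.73-fold (edgeR adjusted p = 0.0092), a call lost, at adjusted p = 0.051 to 0.087, when flox day 8 replicate 1 or either flox day 16 library was left out. Notch2 rose 2.06-fold, from 103 ± 1.53 to 207 ± 19.6 CPM (edgeR adjusted p = 3.3e-06). Summed neural progenitor markers in flox were at 1660 to 1680 CPM on day 8 and 536 to 584 CPM on day 16. Endothelial markers were at 144 to 146 and 45.2 to 48.6 CPM. Neuron markers were at 2340 and 5250 to 5520 CPM, and radial glia markers at 145 to 146 and 549 to 618 CPM. The part of these cells in the changes was not tested.

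KI cultures had 7 genes falling and none rising over the same days, where 79.9% of genes were called (39.2% falling, 49% with at least a 2-fold change). Hes1 fell most, from 137 ± 7.89 to 11.02 ± 2.40 CPM (log2 -3.44 ± 0.13, 10.8-fold, edgeR adjusted p = 7.5e-11), beside 2.13-fold in flox. Notch3 fell 7.04-fold, from 298 ± 16.2 to 36.8 ± 2.77 CPM (edgeR adjusted p = 2.2e-10), Dll1 4.44-fold, Hes5 4.36-fold, Notch1 3.45-fold and Dll4 2.67-fold. Hey1 fell 1.25-fold (edgeR adjusted p = 0.044), which did not pass with the 2 KI groups fitted alone (0.053) or without KI day 8 clone 27, day 16 clone 27 or day 16 clone 48 (0.63, 0.145 and 0.074). Notch2 (log2 -0.15 ± 0.11), Jag1 (0.12 ± 0.22) and Heyl (0.38 ± 0.35) did not pass. Clones 27 and 48 are the same clones on both days, and with the clone as a replicate block Heyl passed as rising (0.38, edgeR adjusted p = 0.012), each clone being slightly higher on day 16. Without day 16 clone 27 its change was -0.13. Summed neural progenitor markers in KI were at 1820 to 1840 CPM on day 8 and 497 to 592 CPM on day 16. Endothelial markers were at 28.0 to 34.7 and 3.01 to 6.61 CPM. Neuron markers were at 1450 to 1700 and 7930 to 8550 CPM, and radial glia markers at 69.9 to 82.2 and 453 to 547 CPM. Their part in the changes was not tested.

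The other Notch genes had 16 calls rising and 23 falling of 42 in flox, and 16 rising and 24 falling in KI. Dtx1, a Deltex ubiquitin ligase gene, rose most in both, 20.8-fold in flox (13.1 ± 0.74 to 266 ± 43.6 CPM, edgeR adjusted p = 4.5e-11) and 46.1-fold in KI. Neurl1b and Neurl1a rose 6.60-fold and 6.15-fold in flox, and 13.2-fold and 11.02-fold in KI. Mib2 in flox and Aph1b in KI, the fourth largest rises, were 2.72-fold and 5.64-fold. The proneural genes fell furthest. Neurog1 went from 108 ± 1.09 to 0.215 CPM in flox and from 69.5 ± 11.01 to 0.0955 CPM in KI, and Neurog2 from 38.5 ± 1.47 to 0.770 CPM and from 56.2 ± 0.11 to 0.107 CPM. Neurod1 in flox fell 36.0-fold, and Neurod4 fell 14.7-fold in flox and 48.6-fold in KI. Hes3 in KI went from 8.78 CPM to at most 4 reads per library.

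**Figure D4:**
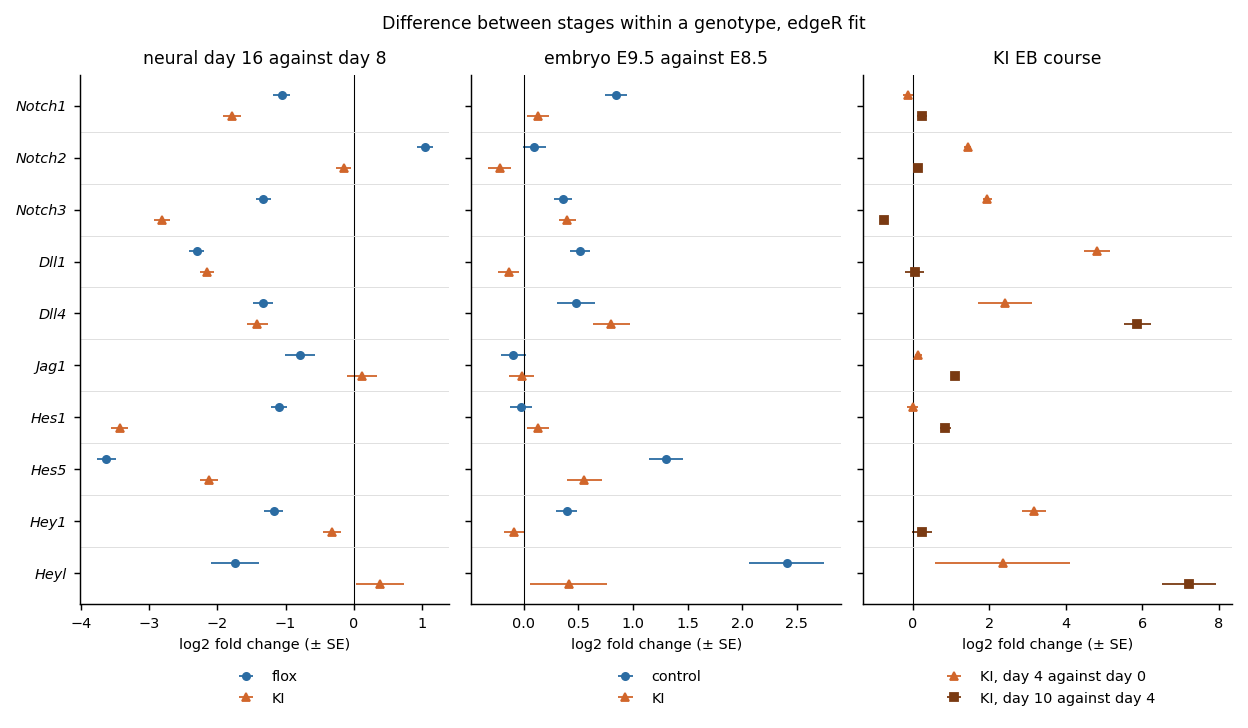
Fitted log2 fold change between stages for the 10 genes (points, with bars of 1 SE), for neural cultures and embryos in both genotypes and for the KI EB course. In neural cultures 9 flox points lie left of 0, and in embryos the control points of Notch1, Dll1, Hes5 and Heyl lie right of the KI points.

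Between E8.5 and E9.5, control embryos had 7 of the 10 genes rising and none falling, where 24.2% of genes were called (12.2% rising, 6.72% with at least a 2-fold change). The median of the 10 was 0.44 and that of all genes -0.02. Heyl rose 5.30-fold, from 1.73 ± 0.63 to 9.73 ± 3.22 CPM (SD, n = 3 each, log2 2.41 ± 0.34, edgeR adjusted p = 4.2e-05). Hes5 rose 2.47-fold, from 28.3 ± 1.77 to 72.9 ± 18.6 CPM (edgeR adjusted p = 2.7e-05), and Notch1 1.80-fold, from 81.9 ± 2.45 to 154 ± 25.6 CPM (edgeR adjusted p = 1.0e-05). Dll1 rose 1.43-fold, Hey1 1.31-fold and Notch3 1.28-fold. Dll4 rose 1.40-fold with an edgeR adjusted p of 0.049, and leaving out any 1 of 5 of the 6 control libraries gave 0.062 to 0.26. Notch2, Jag1 and Hes1 did not pass (log2 0.10 ± 0.11, -0.09 ± 0.11 and -0.02 ± 0.10). Summed neuron markers were at 116 to 131 CPM at E8.5 and 341 to 499 CPM at E9.5 in controls, and at 123 to 130 and 139 to 146 CPM in KI. Neural progenitor markers were at 628 to 654 and 936 to 1170 CPM in controls, and at 533 to 565 and 613 to 719 CPM in KI. Heart and mural markers fell in controls, to 392 to 515 and 236 to 257 CPM. The part of these cells in the stage changes was not tested.

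KI embryos had 3 genes rising and none falling, where 32.5% of genes were called (15.9% rising, 16.6% falling, 6.09% with at least a 2-fold change). Dll4 rose 1.74-fold, from 10.9 ± 1.96 to 19.9 ± 2.97 CPM (edgeR adjusted p = 0.0012), Notch3 1.32-fold (edgeR adjusted p = 0.0011) and Hes5 1.47-fold (edgeR adjusted p = 0.015). The Hes5 call was lost without E8.5 KI replicate 1 or 3, or without E9.5 KI replicate 1 or 2 (edgeR adjusted p = 0.053 to 0.069). Notch1, Dll1 and Heyl had log2 changes of 0.13 ± 0.10, -0.14 ± 0.09 and 0.41 ± 0.35 and did not pass. The difference between the genotypes is the same quantity as the KI effect between stages given above, where the members' values are a description. Of 42 other Notch genes 14 rose and 2 fell in controls, and 11 rose and 4 fell in KI. Past 2-fold, controls had Kat2b, Nrarp, Dtx4, Notch4, Mfng and Dtx1 rising, and KI embryos had Dll3 and Hes7 falling, Dll3 from 30.4 ± 4.16 to 11.5 ± 2.66 CPM (edgeR adjusted p = 1.6e-05) and Hes7 from 21.0 ± 4.75 to 3.40 ± 2.09 CPM (edgeR adjusted p = 0.0091). All 6 proneural genes tested rose in both genotypes. Neurod4, Atoh1 and Neurog3 rose to 8.54, 3.55 and 0.726 CPM in controls, from at most 12 reads per library, and Neurog1, Neurod4 and Atoh1 to 5.36, 1.75 and 1.75 CPM in KI, also from at most 12. Neurod1 went from at most 4 reads per library to 12.1 ± 2.78 CPM in controls and from at most 6 reads to 3.14 ± 1.12 CPM in KI.

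In the KI EB course 5 of the 9 genes tested rose from day 0 to day 4 and none fell, where 50.3% of 15676 genes were called. Dll1 rose from 0.254 ± 0.12 to 7.72 ± 1.30 CPM (edgeR adjusted p = 3.0e-05), on 4 and 8 reads on day 0. Hey1 rose 8.91-fold, from 0.802 ± 0.23 to 7.68 ± 1.04 CPM (edgeR adjusted p = 0.00017), Notch3 3.86-fold, from 67.4 ± 3.68 to 278 ± 34.7 CPM (edgeR adjusted p = 1.5e-05), and Notch2 2.69-fold (edgeR adjusted p = 2.9e-05). Dll4 passed with 7 and 10 reads on day 4 and 1 and 2 on day 0 (edgeR adjusted p = 0.024), a call lost without any 1 of the 4 libraries (0.056 to 0.13). From day 4 to day 10, 4 rose and 1 fell, where 73.3% of genes were called. Dll4 reached 24.4 ± 8.49 CPM (edgeR adjusted p = 8.2e-06). Heyl, at 0 and 1 read on day 4, reached 4.46 ± 1.17 CPM on 71 and 127 reads. Heyl passed the filter on low counts only through the day 10 libraries, so its call is a description and no p-value is given. Jag1 rose 2.16-fold to 93.4 ± 4.26 CPM and Hes1 1.80-fold to 87.3 ± 17.5 CPM, while Notch3 fell 1.69-fold to 174 ± 18.8 CPM. The endothelial sum went from 36.5 and 41.8 CPM on day 4 to 545 and 444 CPM on day 10, with Dll4. Mural markers were at 421 to 526 CPM on day 4 and 2430 to 2750 CPM on day 10, and ExEn markers at 133 to 137 and 2100 to 2200 CPM. Heart markers were at 23.3 to 25.0 and 227 to 335 CPM, and blood markers at 1.27 to 2.10 and 309 to 328 CPM. Pluripotency markers fell, from 1480 to 1530 CPM to 234 to 370 CPM, as did neural progenitor markers. The part of these cells was not tested.

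Other Notch genes of the KI course had 18 rising and 11 falling calls of 41 from day 0 to day 4, and 15 rising and 11 falling from day 4 to day 10. The 29 calls of the first step became 17 without day 4 clone 27 or without day 0 clone 48, and 18 without day 4 clone 48. Dll3 rose 73.3-fold by day 4, from 0.951 ± 0.22 to 74.7 ± 15.7 CPM (edgeR adjusted p = 8.1e-06), and was back at 0.525 ± 0.27 CPM on day 10. Maml3 rose 46.0-fold by day 4, to 23.1 ± 1.16 CPM, Dtx4 17.1-fold, to 10.5 ± 0.47 CPM, and Hes7 from at most 1 read per library to 0.568 CPM. Kat2b, Rfng, Notch4 and Maml2 fell by day 4, between 2.02-fold and 3.11-fold. By day 10 Dlk1 had risen from 12.6 ± 1.18 to 2986 ± 1729 CPM (edgeR adjusted p = 0.00015), Hey2 40.8-fold to 21.9 ± 6.90 CPM, Maml2 8.10-fold and Aph1b 7.76-fold, and Dtx1, Lfng and Hes6 had fallen 21.2-fold, 3.05-fold and 2.55-fold.

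By the likeness of group means, the 2 genes closest to each member were found among genes with at least 1 CPM on average (Pearson r of log2(CPM + 1) over the 18 groups, a description with no test). The closest matches were those of Hes5, with Fam181a (0.989) and Ccar2 (0.982), of Dll4, with Sema3g (0.959) and Adgrf5 (0.945), of Hey1, with Mettl9 (0.952) and Chst3 (0.944), of Dll1, with Nsd2 (0.950) and 1110004F10Rik (0.934), and of Heyl, with Foxp2 (0.941) and 4921531C22Rik (0.938). Notch3 was closest to Plekhg2 (0.931) and Pi4k2b (0.922), Hes1 to Chrac1 (0.917) and Rbbp8 (0.885), Notch2 to Piezo2 (0.894) and Zfp275 (0.862), and Jag1 to Dipk2a (0.887) and Tek (0.829). Notch1 had the weakest matches, Hsf2 (0.794) and Mycl (0.793). With Spearman correlation in place of Pearson 6 of these 20 genes were again among the 2 closest.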

How the data were processed

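Counts from 37 poly(A)-selected RNA libraries were analysed. Each deposited table lists, for RefSeq transcripts, counts of reads and RPKM, per the file headers. The submitters' processing notes name Bowtie2, STAR and mm9, with no role for each; the counter, its annotation and its use of strand are not given in the sources used here. Counts were used as deposited for all tests, and RPKM, made by the authors per the file headers, for levels between genes. Of 29082 transcripts, 28436 matched a symbol, the transcript with most reads stood for its gene (23109 entries), and CPM scales its reads to 1000000 of these. Tables held 25.4 to 83.9 M reads.

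Tests were edgeR quasi-likelihood fits (TMM, filterByExpr by group) over all genes with Benjamini-Hochberg adjustment, separately for neural cultures, TE with ExEn, embryos and the EB courses, tested on simulated data. The members and gene lists were chosen with earlier results of these data known. Named genes are all members, and other Notch or proneural genes called with at least a 2-fold change, up to 4 per direction. A proneural gene is not reported here and is in none of the counts of that list. Other genes named with values (Rbpj in TE and ExEn, Nrarp in TE, Foxc2 in ExEn, Maml1 at day 16, Nrarp, Lfng, Mfng and Hey2 at E9.5, genes under 2-fold, and the control embryo rises beside the proneural genes) were chosen after their values were seen. E8.5 embryos that share a title number deviated together (r = 0.334, 0.381 and 0.166 between KI and control). Between E9.5 embryos that share a title number r was lower, at -0.012 to 0.197. KI clones pair across days (r = 0.15 to 0.418). Alternatives were DESeq2 size factors, DESeq2, no filter on low counts, summed transcripts, single libraries left out, only the groups compared, and replicate blocks.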

Additional observations from a re-analysis of the deposited data

Results flagged for a closer look

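The KI effect on Notch3 and Hes1 lay on opposite sides of flox on the neural days, with every KI library above flox on day 8 and below it on day 16. The estimated difference, day 16 minus day 8, was -1.48 (log2) for Notch3 and -2.34 for Hes1. The genes were chosen with these values known, so no test of the difference is given. Jag1 and Dll4 were higher in both KI libraries in TE and lower in both in ExEn, with estimated differences, TE minus ExEn, of 2.00 for Jag1 and 1.73 for Dll4, the latter on 4 to 23 reads per library, again with no test given. By the interaction term in edgeR, the KI effect differed for 13 of 42 other Notch genes between the neural days (33.2% of all genes), for 6 of 42 between the embryonic stages (6.63%) and for 16 of 41 between TE and ExEn (35.3%). The last count was 8 to 16 without single libraries. No group held 4 or more libraries, so no library could be tested as an outlier.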

How the results depend on the processing

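Of 365 recomputed counts of called genes, 333 stayed within 1.5 times the main count and 32 did not. Other Notch genes called at neural day 8 numbered 16 instead of 10 with only the compared groups fitted. At E8.5 they numbered 2 instead of 4 with that fit or with transcripts summed, and 1 to 3 without single libraries. Without single libraries, ExEn gave 7 to 14 other Notch calls (main 13), the TE and ExEn difference 8 to 16 (main 16), and KI EB day 4 against day 0 gave 17 to 22 other Notch calls (main 29). In the EB course other Notch calls were 3 with DESeq2 and 0 to 1 without single libraries (main 0). The members were chosen on their KI values, so their counts there describe the fit over all genes and support nothing. At E8.5 they were 4 (5.46% of all genes called) and 1 to 3 without single libraries, for the embryo difference 4 (6.63%) and 2 to 5, and in the EB course 1 (0.73%), 0 to 1 without single libraries, 2 with DESeq2, 0 without the ESC libraries and 0 with clone 27 or clone 48 alone. Of the 20 genes most like a member, 6 were kept with Spearman correlation. With fewer libraries a lone one is assumed to vary like the other groups; otherwise the cause was not tested.

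A replicate block gave 10 member calls for flox neural days, 8 for KI neural days (main 7, Heyl added) and 5 for each KI EB step, and 5 other Notch calls at E8.5 (main 4). KI and flox cultures share no replicate number, so no paired analysis was possible because nothing links them.

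Changes that reversed sign were all uncalled in the main fit and did so when 1 library was left out, over these ranges: KI neural Jag1 -0.189 to 0.498 and Heyl -0.126 to 0.909; control embryo Notch2 -0.038 to 0.223 and Hes1 -0.084 to 0.019; KI embryo Jag1 -0.132 to 0.095; KI EB day 4 Notch1 -0.271 to 0.007 and Hes1 -0.095 to 0.07; and KI EB day 10 Dll1 -0.13 to 0.223 and Hey1 -0.052 to 0.483. Depth limits Hes5 in all ESC, EB, TE and ExEn libraries (at most 12 reads), Heyl in these cultures except day 10 EBs (at most 10), Dll4 likewise (at most 23), and Dll1 in ESC (at most 8).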
